A study of Mus musculus with 2 samples.

Results

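The Hox genes described here are the 39 genes of the deposited matrix whose symbol is Hox, a letter from a to d and a number, out of 33696 gene features. They fall into the HoxA locus with 11 genes, HoxB with 10, HoxC with 9 and HoxD with 9. Membership goes by symbol alone and uses no counts, although the family was picked for description with earlier results of these data known. The study collected epiblast stem cells of the mouse line Delmix, a culture of primed pluripotent cells given no treatment, and embryoid bodies made from them and taken on day 2, with 1 sample per group. Single cells were profiled with droplet-based sequencing that reads the 3′ ends of transcripts and counts each captured molecule once by its UMI, a random barcode. The deposited counts form 1 pooled matrix, and its cell tags match no sample name, so no value below belongs to either group and embryoid bodies were not compared with stem cells. The pooled cells are described as 1 sample, by cluster of cells, without a test, and all intervals are 95% intervals that cover counting error only.

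Hox genes encode homeodomain transcription factors that give cells their position along the head-to-tail axis. In each locus the genes stand in a row, and their order along the chromosome matches the order in which they come on in the embryo: paralogue group 1 is read early and reaches far towards the head, and group 13 is read late and near the tail. Genes of the same number in different loci are called paralogues. In the forming body axis they are turned on in the primitive streak and caudal epiblast, downstream of Wnt, Fgf, Cdx factors and retinoic acid, and Polycomb proteins keep them silent in pluripotent cells. The later HoxA and HoxD genes also pattern the limbs and external genitalia, and fibroblasts from different body sites are known to keep different sets of Hox genes in culture.

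The cell filter left 16841 of 21593 called cells (78.0%), which hold 121114764 UMIs, and the median cell has 6473. Levels are given as CPM, the UMIs of a gene per 1000000 UMIs of all cells in the group. They are not divided by transcript length, and levels of different genes are not compared below. The Hox genes had 6109 UMIs in kept cells, or 50.4 CPM (49.2 to 51.7), and 38 of the 39 had at least 1 UMI. Cell-free droplets, 72027 uncalled barcodes of 150 to 300 UMIs that show the RNA loose in the suspension, held 401 Hox UMIs, or 25.7 CPM (23.2 to 28.3). The HoxB locus had 2389 UMIs, HoxA 1911, HoxC 1266 and HoxD 543. By the RefSeq gene spans of GRCm38.p6, 20 of the 39 genes overlap another annotated gene, and 10 of them overlap another Hox gene, such as Hoxb3 with Hoxb4 and Hoxd10 with Hoxd11. The strand setting of the count is also not given in the sources used here. Reads of overlapping genes and of antisense partners cannot be told apart.

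Both ends of the Hox order are shown by their promoters, since Hoxb1, of group 1, and Hoxd13, of group 13, mark different cells below. The sequences are from RefSeq on GRCm38.p6 and run from 250 bases before to 50 bases after the annotated start, on the + strand for both genes. Capitals mark TGATNNAT, read on either strand, which is the core of the site that Hox proteins bind together with Pbx partners. Hoxb1 lies at chr11:96365508-96365807 and Hoxd13 at chr2:74667975-74668274.
Hoxb1: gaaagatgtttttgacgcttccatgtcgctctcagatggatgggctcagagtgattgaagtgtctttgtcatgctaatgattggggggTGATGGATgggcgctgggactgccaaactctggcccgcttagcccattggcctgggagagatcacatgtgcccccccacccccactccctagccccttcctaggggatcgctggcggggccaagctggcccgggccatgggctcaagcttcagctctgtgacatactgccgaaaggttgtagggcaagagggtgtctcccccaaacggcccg
Hoxd13: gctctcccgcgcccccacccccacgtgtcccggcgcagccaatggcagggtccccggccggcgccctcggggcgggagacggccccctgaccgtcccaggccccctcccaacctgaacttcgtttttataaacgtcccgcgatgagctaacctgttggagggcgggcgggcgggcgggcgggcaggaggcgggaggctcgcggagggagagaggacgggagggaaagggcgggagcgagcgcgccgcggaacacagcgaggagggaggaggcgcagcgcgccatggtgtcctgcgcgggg
The Hoxb1 promoter held 1 match, whose first base lies at -162 from the start, and the Hoxd13 promoter held none. The 2 promoters held 10 and 37 CpG dinucleotides. The table had 24 promoters of 22 Hox genes, and 4 of them (16.7%) held TGATNNAT, against 8.85% of all 32851 promoters of this length. TTTATG, a core that Cdx proteins bind, was in 20.8% of the Hox promoters and in 11.9% of all promoters. A Hox promoter held a median of 14.5 CpG dinucleotides, with a range of 4 to 45, against a median of 7 for all promoters. These matches describe letters in this window and say nothing about binding in these cells.

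The kept cells fell into 10 clusters, found without the Hox genes, which were left out of the variable genes so that they would not define the clusters. Of these, clusters 4, 7 and 8 held 70.1% of all Hox UMIs in 17.6% of the kept cells. Cluster 4 (1794 cells) was led by Fabp7, Meis2, Fgf8, Npas3 and Meis1 and expressed T at 115 CPM. It stays without a cell type name: 5 of 13 caudal epiblast and neuromesodermal markers, 4 of 12 primitive streak markers and 4 of 11 neuroectoderm markers were at least 2-fold higher there. Cluster 7 (628 cells) is called primitive streak and mesoderm-like. Raised there were 9 of 12 primitive streak markers, among them Mesp1, Mixl1 and Eomes, and 8 of 13 lateral plate markers, among them Hand1 and Gata4. Cluster 8 (540 cells) is called fibroblast or feeder-like: all 13 markers of that list, among them Col1a1, Col3a1, Dcn and Prrx1, were at least 2-fold higher there, and their summed level was 8872 CPM, against 278 CPM in the other kept cells. Which of the 2 cultures these cells came from cannot be told apart here.

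**Figure D1:**
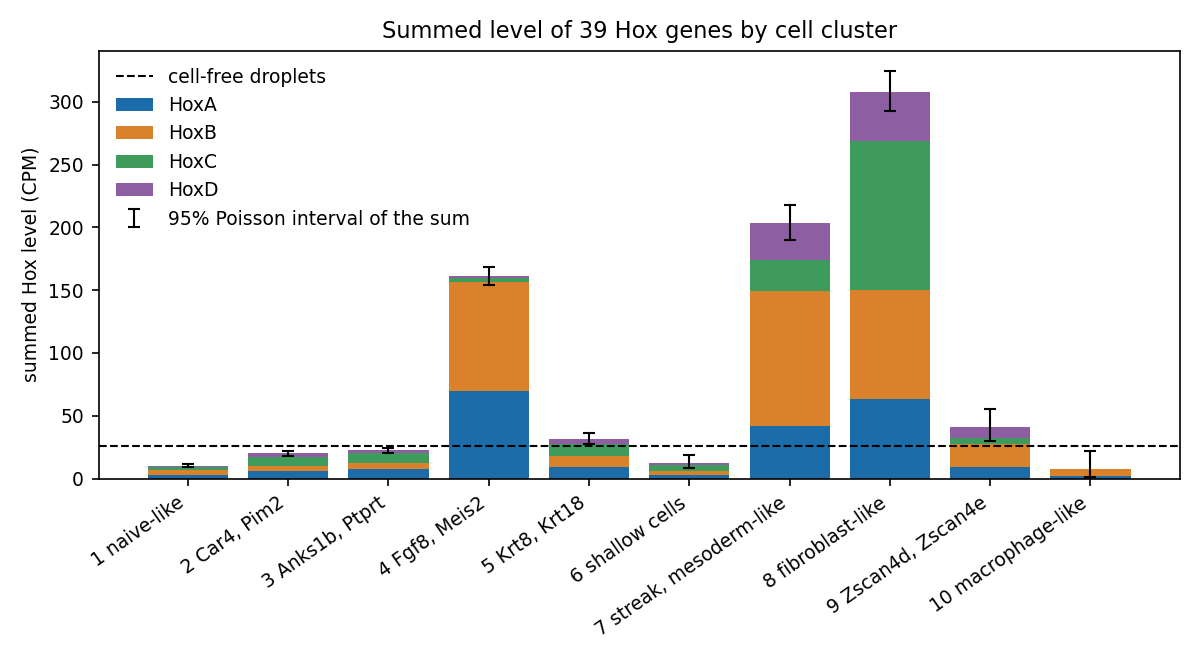
Summed level of the 39 Hox genes in CPM for each of the 10 cell clusters; bar colours give the part of each Hox locus, error bars the 95% Poisson interval of the sum, and the dashed line the level in cell-free droplets. Clusters 4, 7 and 8 stand at 161, 204 and 308 CPM, and clusters 1, 2, 3, 6 and 10 lie below the dashed line at 25.7 CPM.

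The summed Hox level was 308 CPM in cluster 8 (292 to 324), 204 CPM in cluster 7 (190 to 218) and 161 CPM in cluster 4 (154 to 169), and these intervals did not overlap. Cluster 9, led by Zscan4d and other genes of the early embryo, had 41.2 CPM (30.1 to 55.2), and the Krt8 and Krt18 cluster 5 had 31.6 CPM (27.4 to 36.4). The interval of cluster 5 overlapped that of cell-free droplets (23.2 to 28.3), so its sum is not read as above free RNA. The large pluripotent clusters were lower. Cluster 3, led by Anks1b and Ptprt, had 22.4 CPM (20.8 to 24.2), cluster 2, led by Car4, Pim2 and Fgf5, had 20.003 CPM (18.4 to 21.7), and the naive pluripotency-like cluster 1, led by Zfp42 and Esrrb among others, had 10.4 CPM (9.31 to 11.5). The shallow cells of cluster 6 had 12.6 CPM (8.08 to 18.8) and the macrophage-like cluster 10 had 3 Hox UMIs in 78 cells. In clusters 1, 2, 3, 6 and 10 the summed level was below that of cell-free droplets, with an interval that overlapped theirs in cluster 3, so it is not read as expression by these cells. The share of free RNA in these cells was not measured, and the makeup differed: HoxC held 34.0% of the Hox UMIs in cluster 2 and 34.1% in cluster 3, against 18.0% in cell-free droplets. Hoxc13 alone had 400 UMIs in clusters 1, 2 and 3, where all HoxC genes had 80, 191 and 222.

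The loci and paralogue groups differed between the 3 Hox-rich clusters. In cluster 4, HoxA held 43.4% and HoxB 53.5% of the Hox UMIs, whereas HoxC held 1.96% and HoxD 1.16%. In cluster 7, HoxB held 52.8%, HoxA 20.5%, HoxD 14.6% and HoxC 12.1%. In cluster 8, HoxC led with 38.6%, followed by HoxB with 28.2%, HoxA with 20.6% and HoxD with 12.6%. The mean paralogue number, weighted by UMIs, was 3.55 in cluster 4 (3.41 to 3.68), 4.96 in cluster 7 (4.73 to 5.19) and 7.39 in cluster 8 (7.24 to 7.54). Groups 1 to 4 made up 74.5% of the Hox UMIs of cluster 4, 55.4% of those of cluster 7 and 18.3% of those of cluster 8. Groups 5 to 8 made up 45.7% and groups 9 to 13 made up 36.1% in cluster 8. In clusters 1, 2 and 3 groups 9 to 13 made up 54.2%, 53.3% and 47.8% of the few Hox UMIs. Much of this was 1 gene: Hoxc13 had 400 UMIs in these clusters, where groups 9 to 13 had 187, 299 and 311.

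**Figure D2:**
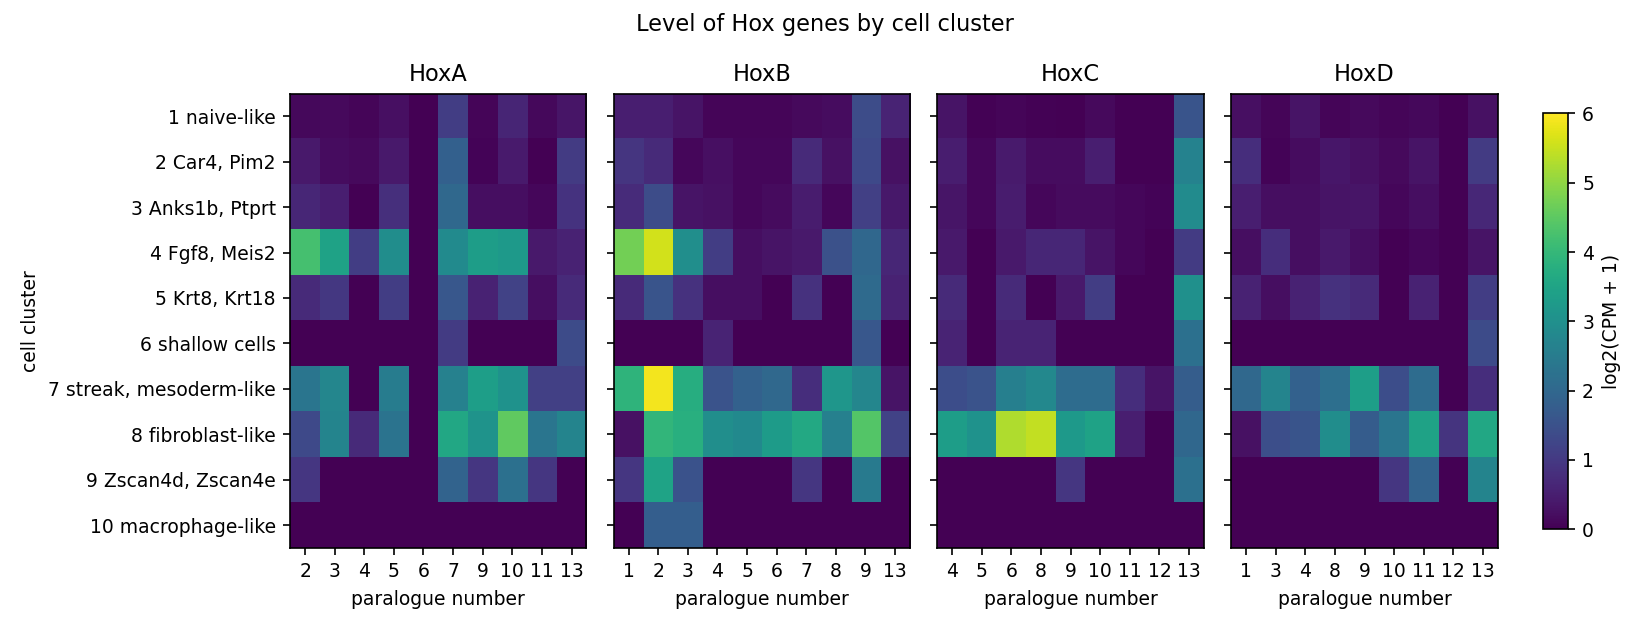
Level of Hox genes as log2(CPM + 1), with cell clusters in rows and paralogue numbers in columns, 1 panel per Hox locus. Among the high values are groups 2 and 3 of HoxA in cluster 4, groups 1 to 3 of HoxB in clusters 4 and 7 and HoxC 6 and 8 in cluster 8. In cluster 8, Hoxa7, Hoxa10, Hoxb2, Hoxb3, Hoxb7, Hoxb9, Hoxc10, Hoxd11 and Hoxd13 also reach 10 CPM. Hoxc13 is the HoxC gene visible in clusters 2, 3 and 5.

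A gene is called higher in a cluster where its CPM + 1 was 2 or more times that of the other kept cells and its level reached 10 CPM; 19550 genes with at least 20 UMIs entered, 35 Hox genes among them. In cluster 4, 3 Hox genes were called higher, Hoxa2, Hoxb1 and Hoxb2, against 2.24% of all genes. In cluster 7, 3 were called higher, Hoxb1, Hoxb2 and Hoxb3, against 3% of all genes. In cluster 8, 10 were called higher, Hoxa7, Hoxa10, Hoxb3, Hoxb7, Hoxb9, Hoxc6, Hoxc8, Hoxc10, Hoxd11 and Hoxd13, against 9.03% of all genes. The median log2 fold of the 35 Hox genes was -0.03 in cluster 4, 1.37 in cluster 7 and 2.16 in cluster 8, where that of all tested genes was -0.01, -0.06 and -0.20. Just outside the call in cluster 4 stood Hoxa3 at 9.98 CPM, under the minimum of 10 CPM. The count in cluster 4 was 5 without called doublets and 7 with mitochondrial and ribosomal protein genes left out of the total, and that in cluster 7 was 5 under both.

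Group 1 to 3 genes, the first to come on in the embryo, marked clusters 4 and 7. Hoxb1, which is needed for the identity of a hindbrain segment, had 25.2 CPM in cluster 4 (22.5 to 28.2), 14.1 CPM in cluster 7 (10.7 to 18.1) and 0.214 CPM, from 1 UMI, in cluster 8, and lay between 0 and 0.916 CPM in the other 7 clusters. Hoxb2, its neighbour in the locus, had 58.9 CPM in cluster 7 (51.8 to 66.7), 47.0 CPM in cluster 4 (43.3 to 51.0) and 14.3 CPM in cluster 8 (11.1 to 18.2). It had 10.1 CPM in cluster 9, 2.49 CPM in cluster 10 and 0 to 1.93 CPM in the other 5 clusters. Both genes were thus high in clusters 4 and 7 and separated cluster 8 in different degrees.

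Hoxa2, which gives the second pharyngeal arch its identity, was called higher in cluster 4 and not in cluster 7. Its level was 17.8 CPM in cluster 4 (15.6 to 20.4), 4.05 CPM in cluster 7 and 1.498 CPM in cluster 8, and 0 to 0.916 CPM in the rest. Hoxb3 had 12.8 CPM in cluster 8 (9.80 to 16.5), 12.4 CPM in cluster 7 (9.26 to 16.3) and 6.81 CPM in cluster 4 (5.43 to 8.43), and 0 to 2.49 CPM in the rest. It was the only 1 of the 11 Hox genes with at least 200 UMIs that was called higher in both cluster 7 and cluster 8.

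Genes of the trunk groups marked cluster 8. Hoxc8, which helps set the form of the thoracic vertebrae and of spinal motor neurons, had 42.4 CPM in cluster 8 (36.7 to 48.7), 5.96 CPM in cluster 7 and 0 to 0.568 CPM in the other 8 clusters, a fold of 32.3 in cluster 8 over the other kept cells. Hoxc6, a gene of the lower neck and upper thorax, had 37.9 CPM in cluster 8 (32.5 to 43.9), 5.01 CPM in cluster 7 and 0 to 0.642 CPM in the other 8 clusters, a fold of 26.7. Both HoxC genes were thus highest in cluster 8, lower in cluster 7 and near 0 elsewhere. Hoxb9, which acts in the thoracic skeleton, had 19.9 CPM in cluster 8 (16.1 to 24.4), 5.72 CPM in cluster 7 (3.67 to 8.51), 4.58 CPM in cluster 9 and 0 to 3.21 CPM in the rest.

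Hoxa10, which acts in the lumbar spine, the limbs and the uterus, had 22.3 CPM in cluster 8 (18.2 to 27.0), 8.52 CPM in cluster 4 (6.96 to 10.3), 7.39 CPM in cluster 7 (5.02 to 10.5) and 0 to 3.66 CPM in the rest. Hoxa7, a trunk gene, was more even, with 11.1 CPM in cluster 8 (8.31 to 14.6), 6.33 CPM in cluster 4 (5.0001 to 7.89), 5.24 CPM in cluster 7 (3.29 to 7.94) and 0 to 3.07 CPM in the rest. Hoxa7 in cluster 4 had a fold of 1.99, just under the 2-fold limit. For both genes the interval of cluster 8 lay above those of clusters 4 and 7.

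Hoxc13, which controls keratin genes in hair and nails, was spread over the pluripotent clusters. Of its 492 UMIs, 81.3% (77.6 to 84.7) lay in clusters 1, 2 and 3, which held 74.6% of all UMIs and only 7.92% of those of Hoxb2. Its level was 7.07 CPM in cluster 5 (5.13 to 9.49), 6.48 CPM in cluster 3, 5.28 CPM in cluster 2, 3.68 CPM in cluster 6, 3.66 CPM in cluster 9, 3.00 CPM in cluster 8, 2.38 CPM in cluster 7, 1.93 CPM in cluster 1, 1.05 CPM in cluster 4 and 0 in cluster 10. Cell-free droplets had 3.07 CPM (2.27 to 4.08) of Hoxc13. Its intervals in clusters 2, 3 and 5 lay above that value, and no cluster reached the 10 CPM needed for a call. In clusters 1 to 3, 43 of 372 cells with a Hoxc13 UMI (11.6%, 8.49 to 15.3) also had a UMI of another Hox gene. That held for 968 of 11887 cells without a Hoxc13 UMI (8.14%, 7.66 to 8.65). The intervals overlapped, and the cells with Hoxc13 were deeper, with a median of 6991 UMIs against 6631.

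Another 24 Hox genes had at least 20 and under 200 UMIs. Cluster 4 led for 3 HoxA genes, Hoxa3 with 1.64 CPM over all kept cells, Hoxa5 with 164 UMIs and Hoxa4 with 22. Cluster 7 led for 6: Hoxa9 with 198 UMIs, Hoxb8 with 92, Hoxd9 with 74, Hoxd1 with 57, Hoxd3 with 49 and Hoxd4 with 42. Cluster 8 led for the other 15, which were Hoxd13 with 128 UMIs, Hoxa13 with 107, Hoxb7 with 99, Hoxc10 with 91, Hoxc4 with 86, Hoxd11 with 83, Hoxc9 and Hoxd8 with 72 each, Hoxb4 with 69, Hoxb6 with 65, Hoxb5 and Hoxb13 with 49 each, Hoxc5 with 47, Hoxa11 with 35 and Hoxd10 with 34. Of these 24, Hoxd1, Hoxb13 and Hoxa13 had most of their UMIs in clusters 1 to 3, with 66.7%, 65.3% and 58.9%. The remaining 4 genes had Hoxc11 8, Hoxd12 4, Hoxc12 2 and Hoxa6 0 UMIs; for Hoxa6 the limit that a count of 0 allows is 0.0248 CPM.

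The share of cells with any Hox UMI was compared after thinning each cell to 2000 UMIs. It was 44.3% in cluster 8 (40.1 to 48.6), 29.2% in cluster 7 (25.6 to 32.9) and 26.9% in cluster 4 (24.8 to 29.0). For cluster 5 it was 4.88%, for cluster 3 4.46%, for cluster 2 3.78% and for cluster 1 2.00%. In the macrophage-like cluster 10, which is taken as a type that should lack most Hox RNA, 1 of 77 cells had a Hox UMI. Without thinning the shares were 80.2% in cluster 8, 47.8% in cluster 7 and 47.4% in cluster 4, at median depths of 7295.5, 5848 and 6121.5 UMIs, and 3.85% in cluster 10 at 3980.5 UMIs. Of the cells of cluster 8, 36.3% held UMIs of at least 3 different Hox genes. That share was 11.1% for cluster 7, 9.03% for cluster 4 and 0.0439% for cluster 1.

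**Figure D3:**
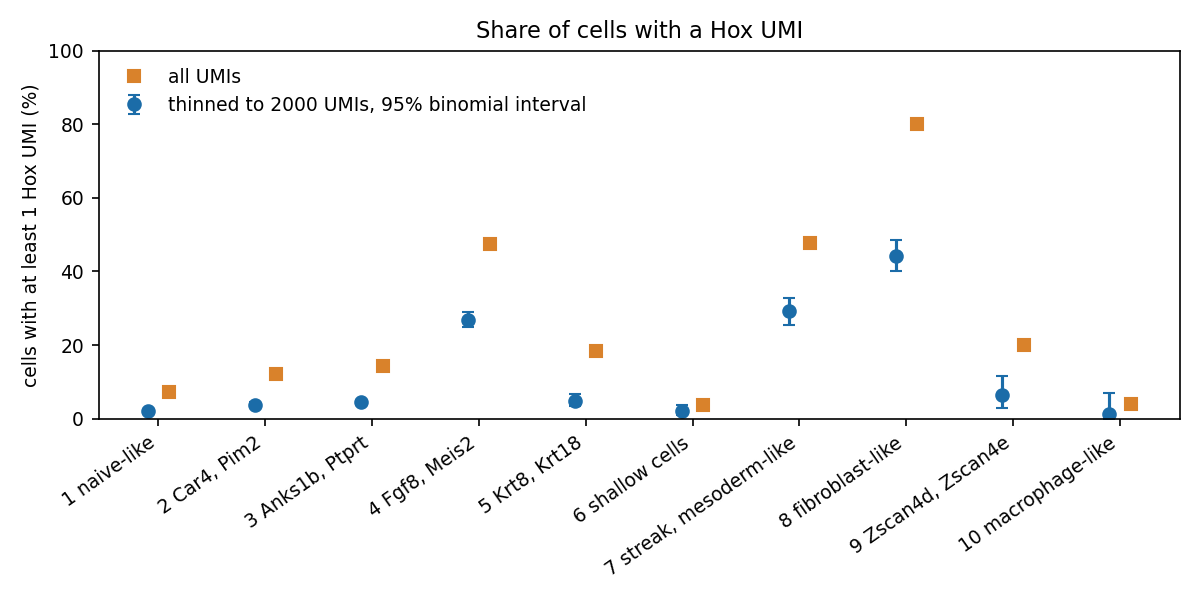
Percent of cells with at least 1 Hox UMI in each cell cluster, after thinning to 2000 UMIs per cell (circles, with 95% binomial intervals) and with all UMIs (squares). Clusters 4, 7 and 8 lie at 26.9%, 29.2% and 44.3% after thinning, and the other clusters at or under 6.34%.

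Cells that the doublet caller marked, which may hold 2 cells in 1 droplet, made up 12.9% of cluster 4, 18.8% of cluster 7 and 23.3% of cluster 8. The summed Hox level in marked cells was 110 CPM in cluster 4, 132 CPM in cluster 7 and 176 CPM in cluster 8. Without them it was 176 CPM in cluster 4, 237 CPM in cluster 7 and 374 CPM in cluster 8, so the 3 clusters kept their order. The median CMO311 tag count per cell was 2494 in cluster 4, 822.5 in cluster 7 and 2038.5 in cluster 8, and that of CMO312 was 320, 2780 and 71.5. Cell-free droplets had medians of 830 and 340. The part of these tags in the Hox differences was not tested.

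Each of the 3 Hox-rich clusters was divided further, again without the Hox genes and without marked doublets, and the division was added after the data had been seen. Noncoding RNAs of the Hox loci, such as Hoxaas3, were not left out of either step and could help to form the clusters. Cluster 4 gave 4a with 988 cells, led by the primed epiblast genes Fgf5 and Utf1 and by the epithelial gene Epcam among others. It also gave 4b with 366 cells, led by Glra1, Greb1l and Epha4 among others. The others were 4c with 174 cells, led by Dcc, Zic1 and Pax3 among others, and 4d with 35 cells. In 4c, 8 of 11 neuroectoderm markers and 9 of 15 neuron markers, among them Dcx and Tubb3, were raised over the rest of cluster 4. The summed Hox level was 530 CPM in 4c (477 to 588), 313 CPM in 4b (291 to 336) and 84.5 CPM in 4a (77.5 to 91.9). Median depth was 3457.5 UMIs in 4c, 6023.5 in 4b and 6099.5 in 4a. Of the 13 fibroblast markers, 5 were also raised in 4c. The summed level of the 13 was 930 CPM there, against 336 CPM in the rest of cluster 4. The part of these markers in the Hox level of 4c was not tested. With a finer division (resolution 0.6), the sub-cluster nearest to 4a had 285 cells and 43.5 CPM. It matched 4a poorly, with a fraction of 0.288 of the cells in either found in both.

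Of the Hox genes, 7 were called higher in 4b than in 4a, against 1.44% of all genes, and these were Hoxa2, Hoxa3, Hoxa9, Hoxa10, Hoxb1, Hoxb2 and Hoxb3. In 4c, 11 were called higher than in 4a, against 7% of all genes, and these were Hoxa2, Hoxa3, Hoxa5, Hoxa7, Hoxa9, Hoxa10, Hoxb2, Hoxb3, Hoxb4, Hoxb8 and Hoxb9. Both lists share Hoxa2, Hoxa3, Hoxa9, Hoxa10, Hoxb2 and Hoxb3. Hoxb1 had 61.0 CPM in 4b (51.5 to 71.8), 29.6 CPM in 4c (18.1 to 45.8) and 15.7 CPM in 4a (12.7 to 19.0), a ratio of 3.90 for 4b over 4a (3.00 to 5.08). Hoxb2 had 120 CPM in 4c (95.3 to 149), 113 CPM in 4b (99.7 to 127) and 25.5 CPM in 4a (21.7 to 29.7). Hoxb1 was therefore highest in 4b, whereas the intervals of Hoxb2 in 4b and 4c overlapped.

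Groups 9 to 13 held 23.7% of the Hox UMIs in 4c, 9.14% in 4b and 10.9% in 4a, and 46.9% in the small 4d. Hoxa9 had 48.9 CPM in 4c (33.6 to 68.6), 10.5 CPM in 4b (6.81 to 15.5) and 3.44 CPM in 4a, a ratio of 14.2 for 4c over 4a (8.03 to 25.6). Hoxb3 had 50.4 CPM in 4c, 10.9 CPM in 4b and 0.939 CPM, from 6 UMIs, in 4a, a ratio of 53.6 for 4c over 4a (22.3 to 156). Hoxb9 had 23.7 CPM in 4c from 16 UMIs, against 2 UMIs in 4b and 6 in 4a. Hoxb4 had 12 UMIs in 4c, or 17.8 CPM (9.18 to 31.1), and none in 4b. The 17.8 CPM is 14.1 times a floor of 3 UMIs in 4b. HoxC and HoxD genes stayed rare in 4c, with 5 and 6 UMIs of 358. In the 35 cells of 4d, led by Lmx1a, Foxa1 and Shh among others, HoxA held 41 of 49 Hox UMIs.

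**Figure D4:**
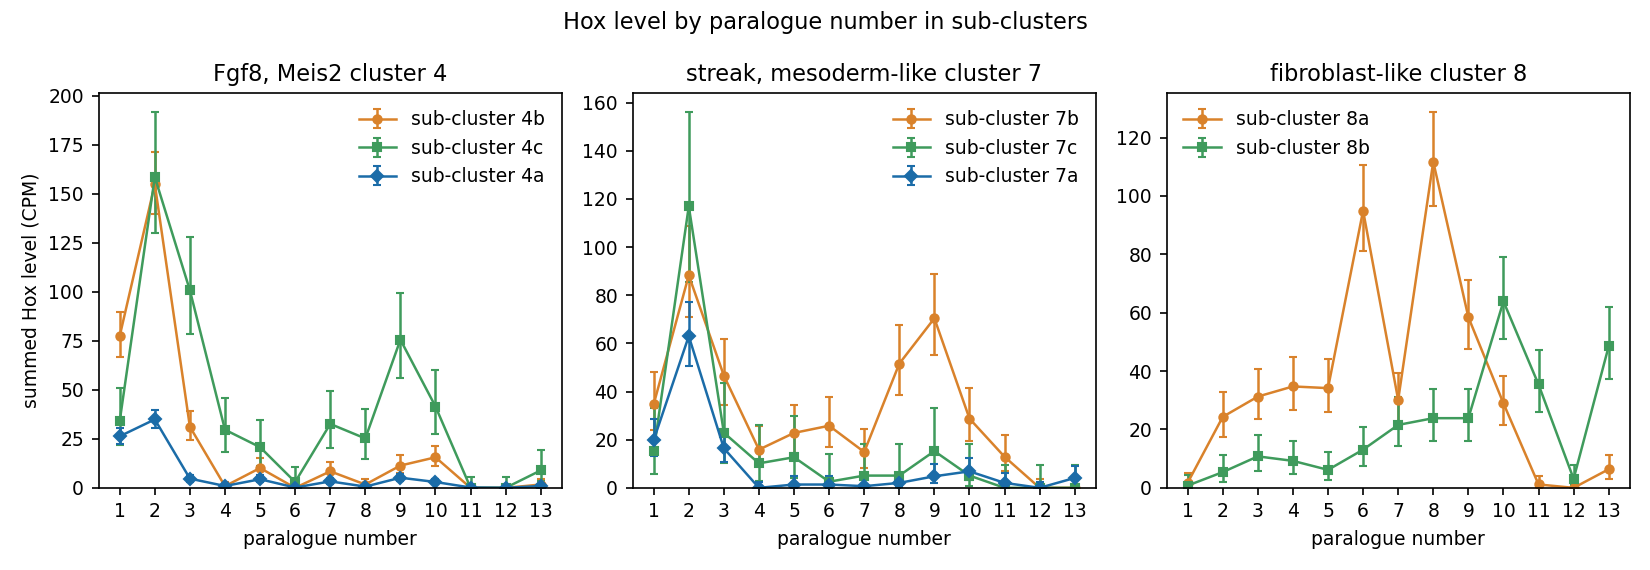
Summed Hox level in CPM by paralogue number, over the 4 loci, for the sub-clusters of cell clusters 4, 7 and 8; points are sums over cells and bars are 95% Poisson intervals. Sub-clusters 4c and 7b have a peak at group 2 and another at group 9, and 8a peaks at groups 6 and 8 where 8b peaks at groups 10 and 13.

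Within cells, Hoxb2 was found more often beside Hoxb1 than without it. In cluster 4, 114 of 235 cells with a Hoxb1 UMI (48.5%, 42.0 to 55.1) also had Hoxb2, against 288 of 1559 cells without Hoxb1 (18.5%, 16.6 to 20.5). Within 4a the shares were 36.5% (25.6 to 48.5) and 10.6% (8.69 to 12.8), and within 4b they were 54.5% (44.8 to 64.1) and 41.4% (35.3 to 47.7), so the intervals were apart in 4a and overlapped in 4b. In 4c none of 16 cells with Hoxb1 had Hoxa9 or Hoxa10, against 34 of 158 cells without Hoxb1 (21.5%). The 16 cells allow a share of up to 20.6%, so this difference was not resolved at this depth. Cells with Hoxb1 were deeper, with a median of 6631 UMIs against 6021 in cluster 4.

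Cluster 7 gave 7a with 244 cells, in which 9 of 13 lateral plate markers were raised over the rest of the cluster. It also gave 7b with 194 cells, led by Igfbp3, Hoxaas3 and Cdx2 among others. In 7c, with 72 cells, 8 of 12 haematoendothelial markers such as Tal1 and Cdh5 were raised. Fgf8 and T, markers of the streak and caudal epiblast, had 878 and 280 CPM in 7b, against 130 and 48.6 CPM in 7a. The summed Hox level was 413 CPM in 7b (374 to 454), 211 CPM in 7c (168 to 262) and 123 CPM in 7a (105 to 142). The mean paralogue number was 5.49 in 7b (5.17 to 5.80), 3.33 in 7c (2.80 to 3.85) and 3.42 in 7a (2.95 to 3.89). Thus 7b held the higher level and the later genes.

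Between 7b and 7a, 12 Hox genes were called higher in 7b, against 2.55% of all genes: Hoxa2, Hoxa3, Hoxa5, Hoxa7, Hoxa9, Hoxa10, Hoxb8, Hoxb9, Hoxc6, Hoxc8, Hoxd3 and Hoxd9. They came from all 4 loci. Hoxa9 had 25 UMIs in 7b, or 24.8 CPM (16.04 to 36.6), and 2 UMIs in 7a, a ratio of 18.1 (4.51 to 158). Hoxd9, which acts with other group 9 genes in the limbs and spine, had 24.8 CPM in 7b and 3.42 CPM in 7a, a ratio of 7.24 (2.72 to 24.2). Hoxb9 and Hoxa5 had 14 UMIs each in 7b, or 13.9 CPM (7.59 to 23.3), and none in 7a. The 13.9 CPM is 6.76 times a floor of 3 UMIs in 7a.

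The early HoxB genes Hoxb1, Hoxb2 and Hoxb3 were not called between 7b and 7a. Hoxb2 had 73.4 CPM in 7b and 62.3 CPM in 7a, a ratio of 1.18 whose interval (0.855 to 1.62) spans 1. Hoxb3 had 19.8 CPM in 7b and 12.3 CPM in 7a, a ratio of 1.61 (0.808 to 3.23). Hoxb1 had 26.8 CPM in 7b and 14.4 CPM in 7a, a ratio of 1.86 (1.01 to 3.46). In the haematoendothelial sub-cluster 7c, Hoxb2 held 46 of 83 Hox UMIs. The largest number of Hox genes in 1 cell was 18, in cluster 7, and 14 in 7b, which holds no marked doublets.

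Cluster 8 gave 8a with 208 cells, led by Ccl11, Dlk1 and Postn among others, 8b with 186 cells, led by Angptl7, Penk and Mmp13 among others, and 8c with 20 cells. Median depth was 7364.5 UMIs in 8a and 6258.5 in 8b. Both larger ones expressed the fibroblast markers: Col1a1 had 2217 CPM in 8a and 1270 CPM in 8b, and Prrx1 had 344 CPM in 8a and 397 CPM in 8b. The summed Hox level was 458 CPM in 8a (427 to 491) and 266 CPM in 8b (238 to 295). HoxC held 52.2% and HoxB 35.8% of the Hox UMIs in 8a, whereas HoxA held 41.2% and HoxD 32.5% in 8b. The mean paralogue number was 6.64 in 8a (6.47 to 6.80) and 9.20 in 8b (8.89 to 9.50).

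The called genes fell along the loci, but not whole loci. In 8a, 13 Hox genes were called higher than in 8b, against 1.67% of all genes, and they were the HoxB genes Hoxb2 to Hoxb7 and Hoxb9 and the HoxC genes Hoxc4, Hoxc5, Hoxc6, Hoxc8, Hoxc9 and Hoxc10. In 8a, 8 were called lower than in 8b, against 2.38% of all genes, and they were the HoxA genes Hoxa7, Hoxa9, Hoxa10, Hoxa11 and Hoxa13 and the HoxD genes Hoxd10, Hoxd11 and Hoxd13. No HoxA or HoxD gene was called higher in 8a, and no HoxB or HoxC gene was called lower. Some genes of the same number went opposite ways. Hoxc10 had 18.5 CPM in 8a (12.7 to 26.2) and 6.93 CPM in 8b (3.17 to 13.2), whereas Hoxd10 had 1 UMI in 8a and 12.3 CPM in 8b (7.04 to 20.002). Hoxb9 had 35.9 CPM in 8a (27.5 to 46.0) and 6.16 CPM in 8b (2.66 to 12.1), whereas Hoxa9 had 4.63 CPM in 8a (2.00 to 9.13) and 12.3 CPM in 8b (7.04 to 20.002).

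**Figure D5:**
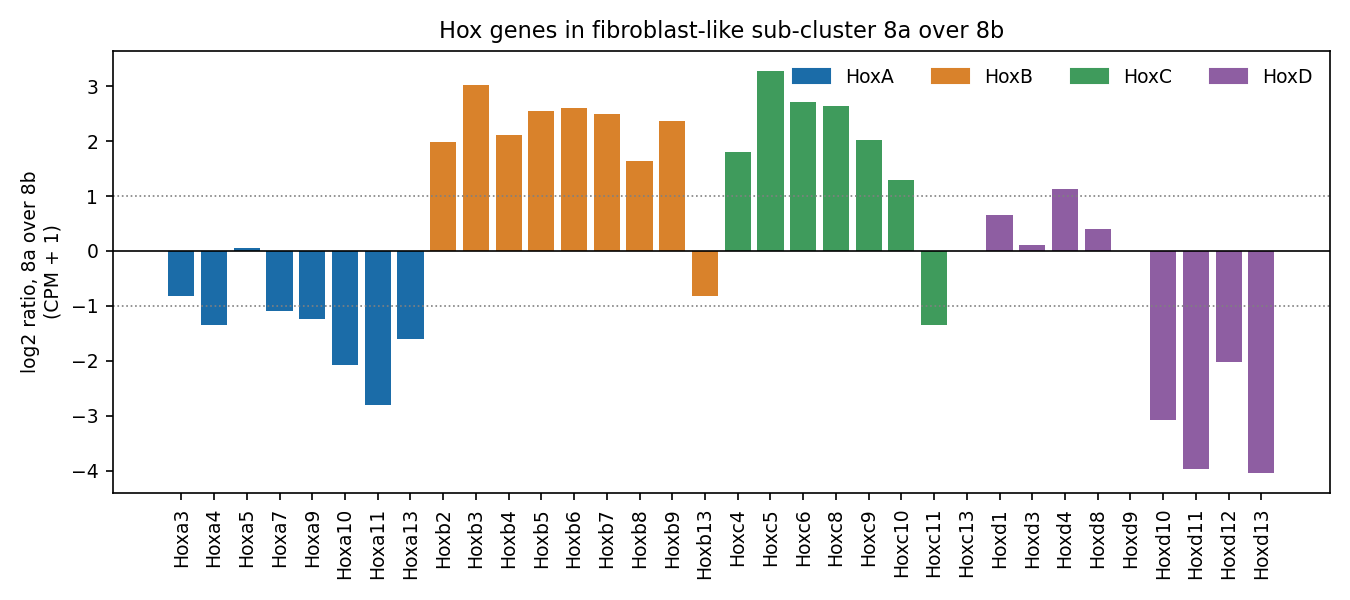
Log2 ratio of sub-cluster 8a over 8b on CPM + 1 for Hox genes with a UMI in either, ordered by locus and number; dotted lines mark 2-fold. HoxB 2 to 9 and HoxC 4 to 10 lie above 0, and HoxA 7 to 13 and HoxD 10 to 13 lie below it.

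Among the genes high in 8a, Hoxc8 had 92.1 CPM in 8a (78.3 to 108) and 13.9 CPM in 8b (8.21 to 21.9), a ratio of 6.64 (4.07 to 11.5). Hoxc6 had 75.8 CPM in 8a (63.4 to 90.0) and 10.8 CPM in 8b (5.89 to 18.1), a ratio of 7.04 (4.05 to 13.2). Among those high in 8b, Hoxd13, which shapes the digits and the genital bud, had 2 UMIs in 8a and 45 UMIs, or 34.6 CPM (25.3 to 46.4), in 8b, a ratio of 0.0334 for 8a over 8b (0.00393 to 0.128). Hoxa10 had 9.84 CPM in 8a (5.73 to 15.8) and 44.6 CPM in 8b (33.9 to 57.7), a ratio of 0.220 (0.120 to 0.384). Pitx1, a factor of the hind limb outside the Hox loci, had 2.32 CPM in 8a and 13.1 CPM in 8b, from 4 and 17 UMIs. Tbx4 had 1.74 CPM in 8a and 10.01 CPM in 8b, from 3 and 13 UMIs. Shox2 went the other way, with 16.8 CPM in 8a (11.2 to 24.1) and 9.24 CPM in 8b (4.77 to 16.1). Tbx15 had 105 CPM in 8a and 102 CPM in 8b, and Hand2 had 19.7 CPM in 8a and 21.6 CPM in 8b. Tbx5, a factor of the forelimb, had 4.05 CPM in 8a and 4.62 CPM in 8b.

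The sets of genes that divide 8a from 8b were also counted cell by cell, in the same cells, so these counts are no independent evidence of the division. Of the 540 cells of cluster 8, 82 had a UMI of Hoxd10 to Hoxd13, and 6 of these (7.32%, 2.73 to 15.2) also had a UMI of the HoxB genes 3 to 9 or the HoxC genes 4 to 10. Of the 458 cells without a late HoxD UMI, 258 had one (56.3%, 51.7 to 60.9). The depths were close, with medians of 7180.5 and 7343 UMIs. Without marked doublets the counts were 6 of 69 and 207 of 345 cells. Within 8b the shares were 4.62% (0.962 to 12.9) of 65 cells with a late HoxD UMI and 22.3% (15.2 to 30.8) of 121 cells without one, with intervals apart. In 8a only 4 cells had a late HoxD UMI, and 3 of them also had a HoxB or HoxC UMI, against 85.3% of the other 204. Hoxc8 and Hoxc6 were found together instead: 71 of 127 cells with Hoxc8 (55.9%) also had Hoxc6, against 54 of 413 cells without Hoxc8 (13.1%), at median depths of 9321 and 6711 UMIs. Both genes were higher in 8a than in 8b. Within 8a the shares were closer, 55.7% (45.2 to 65.8) with Hoxc8 and 33.3% (24.7 to 42.9) without it. Median depths there were 8565 and 6298 UMIs.

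Partners and regulators of Hox genes were read from lists, beside the share of all tested genes that was called. Genes of these lists were not left out of the clustering and could help to form the clusters. Meis2, Meis1, Fgf8 and T are among the leading genes of cluster 4, and Cdx2 is among those of 7b. The counts below are therefore a description and no independent evidence. That share was 2.24% higher and 2.57% lower in cluster 4, 3% higher and 3.51% lower in cluster 7, and 9.03% higher and 7.21% lower in cluster 8. A lower call needed at least 10 CPM in the other kept cells. No Hox gene reached this level there, so none could be called lower in clusters 4, 7 and 8. Of 9 TALE cofactors, homeodomain proteins that bind DNA together with Hox proteins, 7 were called higher in cluster 4, 5 in cluster 7 and 1 in cluster 8, and none was called lower in these clusters. The count in cluster 8 is near its 9.03% of all genes. The median log2 fold of the list was 1.72 in cluster 4, 1.14 in cluster 7 and 0.05 in cluster 8. Meis2 had 408 CPM in cluster 4, 112 CPM in cluster 7 and 104 CPM in cluster 8, against 8.15 CPM in cluster 1. Pknox2 had 45.2 CPM in cluster 4, 12.4 CPM in cluster 7 and 7.49 CPM in cluster 8. Meis1 was called higher in all 3 clusters, with 434 CPM in 4c, 207 CPM in 4b and 93.3 CPM in 4a.

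Of 10 upstream factors of the caudal embryo, 3 were called higher in cluster 4 (T, Wnt8a and Fgf8), 4 in cluster 7 (Cdx2, T, Fgf8 and Evx1) and none in cluster 8, where T and Fgf8 were called lower. Beside these stand 2.24%, 3% and 9.03% of all genes higher and 7.21% lower in cluster 8, and list medians of 0.74, 0.78 and -0.45 on the log2 scale. Cdx2, a direct activator of trunk Hox genes, had 65.4 CPM in 7b, 4.79 CPM in 7a, 11.8 CPM in 4b, 0 in 4c and 3.76 CPM in 4a. Of 16 retinoic acid genes, 3 were called higher in cluster 4, 1 in cluster 7 and 4 in cluster 8, and 2 were called lower in cluster 7. The count of higher genes in cluster 7 is near its 3% of all genes, and the list medians were 0.71, -0.03 and 0.32 on the log2 scale. Crabp1, a retinoic acid binding protein, had 1658 CPM in 4c, 234 CPM in 4b and 14.4 CPM in 4a, and 2823 CPM in 8a and 1627 CPM in 8b. Cyp26a1, which breaks retinoic acid down, had 157 CPM in cluster 7, 4.54 CPM in cluster 4 and 1.28 CPM in cluster 8.

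Of 15 noncoding RNAs and neighbours of the Hox loci, 2 were called higher in cluster 4 (Hotairm1 and Hoxb3os), 4 in cluster 7 (Hotairm1, Hoxaas3, Hoxb3os and Evx1) and none in cluster 8, against 2.24%, 3% and 9.03% of all genes. The list medians were 0.29, 0.91 and -0.01 on the log2 scale. Hoxb3os, whose span overlaps Hoxb2 and Hoxb3, had 126 CPM in 4c, 66.5 CPM in 4b and 14.1 CPM in 4a. Hoxaas3, whose span overlaps Hoxa3, Hoxa5 and Hoxa6, had 50.6 CPM in 7b and 1.37 CPM in 7a. These RNAs were not left out of the clustering, so their differences may not be independent of the clusters. Of 21 Polycomb and trithorax genes, which keep Hox genes silent or active, 2 were called higher and 1 lower in cluster 4, 1 higher and 2 lower in cluster 7, and 1 higher and 7 lower in cluster 8, where 7.21% of all genes were called lower. The list medians were 0.06, 0.12 and -0.57 on the log2 scale, against -0.01, -0.06 and -0.20 for all tested genes. The 7 were Ezh2, Suz12, Jarid2, Mtf2, Cbx7, Phc1 and Kdm6a, and Jarid2 had 198 CPM in cluster 8, 297 CPM in cluster 7, 390 CPM in cluster 4 and 843 CPM in cluster 1. Ezh2, Suz12, Jarid2 and Mtf2 belong to PRC2, the Polycomb complex that marks silent Hox loci.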

How the data were processed

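The authors deposited raw UMI counts per gene and barcode as 1 matrix. The software was Cell Ranger 8.0.1, per the file headers. The submitters' processing notes also name Seurat, without a version. For the genome build and annotation, nothing is given in the sources used here. A table of tag calls came with the matrix, and its called cells were used; tag counts were read from the matrix itself. Tags matched no sample label, so all cells were treated as 1 sample and no comparison of samples was made.

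Kept cells had 1000 or more detected genes and no more than 10% of UMIs from mitochondrial genes. They were clustered with scanpy 1.11.5 and leidenalg 0.10.2 (2000 variable genes without Hox, S phase and G2/M genes, 30 components, 15 neighbours, resolution 0.5). Clusters 4, 7 and 8 were divided at resolution 0.3 on 1000 variable genes and 15 components. Scrublet, at an expected rate of 0.1, marked 2145 kept cells (12.7%) as doublets; they were left in except in sub-clusters. Free RNA was not removed. CPM have exact Poisson intervals, shares exact binomial intervals, and ratios exact conditional intervals; folds use a pseudocount of 1 CPM, and a count of 0 was read as up to 3. Intervals of the mean paralogue number treat UMIs as independent, which they are not. Thinning to 2000 UMIs left out 294 cells. The fold calls were checked on simulated counts of genes with far more UMIs than any Hox gene had. The check therefore does not cover the Hox calls.

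The gene family and the lists were chosen with earlier results of these data known, while membership in the family goes by symbol alone. Genes with at least 200 UMIs are given in every cluster, except 1 that is not reported here and stays in the sums and counts, those with at least 20 and under 200 by total and leading cluster, and the rest once; list genes follow their ratio between clusters. Members named beside list counts, the markers named for clusters, and Pitx1, Tbx4, Tbx5, Shox2, Tbx15 and Hand2 were chosen after their values were seen. Of the listed noncoding RNAs, 4 symbols were not matched.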

Additional observations from a re-analysis of the deposited data

Results flagged for a closer look

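The tag oligos of the matrix, which enter no comparison above, were above the level of cell-free droplets for 1 tag in each Hox-rich cluster. The other tag was at or below it, with a median of 320 CMO312 UMIs in cluster 4, 822.5 CMO311 UMIs in cluster 7 and 71.5 CMO312 UMIs in cluster 8, against cell-free medians of 340 for CMO312 and 830 for CMO311. The median CMO311 count was 2494 UMIs per cell in cluster 4 and 2038.5 in cluster 8, where the 90th percentile of cell-free droplets was 1228. The median CMO312 count was 2780 UMIs per cell in cluster 7, where that percentile was 478. The tag names match no sample label, and the cells of a cluster cannot be given to a sample from them.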

How the results depend on the processing

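No paired analysis was possible because each group had 1 sample and the matrix pools them. Of 121 alternatives to the summary values, 75 kept their value within its interval or within 1.5 times for counts, and 46 moved. A reversal was not defined for these values. Of 231 alternatives to gene folds, 211 kept their side of the 2-fold limit, 20 changed it and 0 reversed. The sub-clusters and their finer division were chosen after seeing the data.

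A strict cell filter gave 48.8 CPM over all kept cells, 128 CPM, a mean paralogue number of 3.33 and a thinned share of 21.2% in cluster 4, and 186 CPM in cluster 7. A lenient filter gave 5 called Hox genes in cluster 4 and a share of 24.7% in cluster 7. Clustering with the Hox genes gave 153 CPM in the cluster nearest to 4, and resolution 1.0 gave 124 CPM, a mean paralogue number of 3.08 and a share of 18.6%. Without marked doublets, cluster 4 had 176 CPM and 5 called genes, cluster 7 had 237 CPM, a mean of 4.68 and 5 called genes, and cluster 8 had 374 CPM and a share of 50.1%. With free RNA taken off, 5 genes were called in cluster 4. Thinning to 1000 UMIs gave shares of 15.4%, 16.6% and 26.3% in clusters 4, 7 and 8, and thinning to 4000 UMIs gave 35.8%, 37.9% and 64.5%.

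With mitochondrial and ribosomal protein genes left out of the total, levels were 65.5 CPM over all kept cells, 207 CPM with 7 called genes in cluster 4, 257 CPM with 5 in cluster 7, 385 CPM in cluster 8, and 109 CPM in 4a, 398 in 4b, 658 in 4c, 154 in 7a, 522 in 7b, 565 in 8a and 329.65 in 8b. At sub-clustering resolution 0.6 the nearest sub-clusters had 43.5 CPM and a mean of 3.68 for 4a, a mean of 4.28 for 4c, 361 CPM and a mean of 5.09 for 7b, 505 CPM for 8a, and 321 CPM and a mean of 8.50 for 8b. The fraction of the cells in either division that lay in both was 0.288 for 4a, 0.545 for 4b and 0.749 for 4c. It was 0.518 for 7a, 0.789 for 7b, 0.479 for 8a and 0.5 for 8b. Depth limits genes under 20 UMIs, which were not tested.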
